A study of Mus musculus with 4 samples.

Results

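The genes described here are 10 receptors and partner proteins through which innate cells detect bacterial endotoxin, bacterial lipopeptides, formyl peptides and microbial glycolipids: Cd14, Tlr2, Tlr4, Ly96, Myd88, Lbp, Fpr1, Fpr2, Clec4e and Clec4d. They were taken by gene symbol from the 32285 genes listed in the deposited matrices, and all 10 had a row and counts in every library. The data are droplet single-cell RNA counts from mouse hearts, with 1 library for each of 4 groups. The groups are cecal ligation and puncture with tragus stimulation at a low level (CLP plus stimulation), cecal ligation and puncture alone (CLP), a sham and a control. CLP opens the gut to the abdomen and is a mouse model of sepsis, and tragus stimulation is an electrical stimulation of the outer ear. The tissue is labelled as all cells of the heart. The sources used here do not give strain, age or sex, how many animals a library holds, or the times of surgery, stimulation and tissue collection.

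Endotoxin, the lipopolysaccharide of Gram-negative bacteria, is carried by the serum protein Lbp to Cd14, a co-receptor without a signalling tail of its own, which passes it to Tlr4 and its partner Ly96 (MD-2). Tlr4 and Tlr2, a receptor for bacterial lipopeptides, signal through the adaptor Myd88. Fpr1 and Fpr2 are chemotactic receptors for N-formyl peptides, which bacteria and mitochondria release. Clec4e (Mincle) and Clec4d (MCL) are C-type lectin receptors for microbial glycolipids and signal through the Fc receptor gamma chain. In the resting heart Cd14, Fpr1, Fpr2, Clec4e and Clec4d are mostly associated with resident macrophages and with leukocytes that enter from blood.

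In the GENCODE vM21 annotation of GRCm38, Fpr1 (chr17:17876471-17883940, minus strand) and Fpr2 (chr17:17887824-17893952, plus strand) lie head to head, with 3884 bp between their starts and no protein-coding gene between them. Clec4d (chr6:123262111-123275265, plus strand) and Clec4e (chr6:123281789-123289870, minus strand) run towards each other with a gap of 6523 bp. Further positions are chr1:16688051-16709611 for Ly96, chr2:158306493-158332852 for Lbp, chr3:83836272-83841767 for Tlr2, chr4:66827584-66930284 for Tlr4 and chr9:119335934-119341411 for Myd88. The annotated span of Myd88 overlaps Slc22a14 on the same strand and Acaa1a on the other strand, and that of Fpr2 overlaps Fpr3 on the same strand, so reads of these could be split or dropped in counting. No count was assigned to Fpr3, Fpr-rs3, Fpr-rs4, Fpr-rs6 or Fpr-rs7, the near paralogues of Fpr1 and Fpr2, in the macrophage-like or neutrophil-like cells of any library.

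The promoters of both gene pairs are shown because both genes of each pair stood far higher in CLP than in sham in macrophage-like cells. That of Tlr2, which stood lower there by less than 2-fold, is set beside them. Each runs from 250 bases before to 50 bases after the RefSeq start on GRCm38.p6, written 5′ to 3′ on the gene's own strand. The windows are chr17:17883890-17884189 (minus), chr17:17887574-17887873 (plus), chr6:123261857-123262156 (plus), chr6:123289822-123290121 (minus) and chr3:83841559-83841858 (minus). Capitals mark matches to 5 motifs searched on both strands.
Fpr1: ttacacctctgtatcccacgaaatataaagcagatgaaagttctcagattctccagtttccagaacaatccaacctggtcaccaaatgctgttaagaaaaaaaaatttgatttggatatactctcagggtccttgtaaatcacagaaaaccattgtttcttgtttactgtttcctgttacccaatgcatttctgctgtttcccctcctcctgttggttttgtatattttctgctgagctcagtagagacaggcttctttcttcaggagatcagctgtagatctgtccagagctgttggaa
Fpr2: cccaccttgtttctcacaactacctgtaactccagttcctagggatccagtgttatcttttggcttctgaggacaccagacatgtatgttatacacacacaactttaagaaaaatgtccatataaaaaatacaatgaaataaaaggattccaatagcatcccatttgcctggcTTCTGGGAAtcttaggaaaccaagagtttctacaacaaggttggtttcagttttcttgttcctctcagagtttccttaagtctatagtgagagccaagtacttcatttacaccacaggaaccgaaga
Clec4d: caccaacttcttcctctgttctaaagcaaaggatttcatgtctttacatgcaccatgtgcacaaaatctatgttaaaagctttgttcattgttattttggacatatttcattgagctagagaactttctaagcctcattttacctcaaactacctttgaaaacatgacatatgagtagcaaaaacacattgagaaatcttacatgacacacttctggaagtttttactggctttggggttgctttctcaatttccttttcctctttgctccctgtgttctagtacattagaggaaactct
Clec4e: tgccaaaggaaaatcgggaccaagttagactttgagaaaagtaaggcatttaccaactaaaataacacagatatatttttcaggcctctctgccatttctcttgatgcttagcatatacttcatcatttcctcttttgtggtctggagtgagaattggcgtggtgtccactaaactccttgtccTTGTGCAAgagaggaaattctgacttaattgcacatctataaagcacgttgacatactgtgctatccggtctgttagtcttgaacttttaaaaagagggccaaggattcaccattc
Tlr2: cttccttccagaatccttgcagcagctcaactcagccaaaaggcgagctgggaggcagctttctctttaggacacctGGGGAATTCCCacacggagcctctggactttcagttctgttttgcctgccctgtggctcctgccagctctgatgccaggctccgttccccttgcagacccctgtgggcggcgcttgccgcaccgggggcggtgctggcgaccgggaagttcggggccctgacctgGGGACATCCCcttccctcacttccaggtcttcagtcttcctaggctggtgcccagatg

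The motifs were C/EBP (TTGCNNAA), PU.1 (GAGGAAGT), AP-1 (TGANTCA), STAT (TTCNNNGAA) and the degenerate NF-kappaB site. Over 32851 mouse promoters of 300 bp, 10.8% held the C/EBP letters, 3.20% PU.1, 7.81% AP-1, 8.30% STAT and 4.51% NF-kappaB. In the windows printed here, Clec4e held 1 C/EBP match at position -66 and Fpr2 held 1 STAT match at position -77, counted from the start. Tlr2 held NF-kappaB matches that begin at -173, -172 and -8, of which the first and the second overlap. The Fpr1 and Clec4d windows held none of these letters. A match is a description of the letters in the window.

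Cells were sorted into classes by the number of class markers they expressed, and a class is called by those markers, as in macrophage-like. The macrophage-like class held 2831, 1628, 3129 and 4021 cells in CLP plus stimulation, CLP, sham and control, with a median of 7381, 7224.5, 5817 and 3406 UMIs per cell. The neutrophil-like class was smaller, with 447, 227, 201 and 133 cells in the same order of libraries. Their median depth was 5204, 5883, 2654 and 1431 UMIs. Cells that met a limit of the sorting rule with no marker to spare made up 20.5%, 12.5%, 6.10% and 9.38% of the macrophage-like class and 36.2%, 19.4%, 8.46% and 11.3% of the neutrophil-like class. Fibroblast-like cells numbered 1314, 2002, 1693 and 3319, and endothelial-like cells 494, 2027, 1640 and 3198. Monocyte-like cells reached the minimum of 20 in CLP plus stimulation (70 cells) and sham (24 cells) but not in CLP or control, so none of the 3 comparisons could be made in them. Levels are counts of the gene per 1000000 UMIs of the class in a library (CPM), so they are shares of the RNA of the class. Since a group is 1 library, the spread between replicates is unknown and no test was made. Intervals are exact 95% intervals that cover counting error only. Differences are called by size, as at least 2-fold, and are set beside the share of all genes with at least 20 counts that passed the same fold. CLP over sham and CLP plus stimulation over CLP share the CLP library.

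Of the libraries, CLP plus stimulation held 54611436 UMIs over 8831 barcodes, CLP 58330756 over 8741, sham 58028279 over 9538 and control 59465046 over 15964. Between 19 and 60 barcodes were shared by any pair of libraries. The summed level of the 9 neutrophil markers in fibroblast-like cells, which should lack them, was 661 CPM in CLP plus stimulation, 365 CPM in CLP, 86.5 CPM in sham and 48.0 CPM in control. The summed level of the 9 macrophage markers in the same cells ran the other way, at 284 CPM in CLP plus stimulation, 241 CPM in CLP, 362 CPM in sham and 375 CPM in control.

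**Figure D1:**
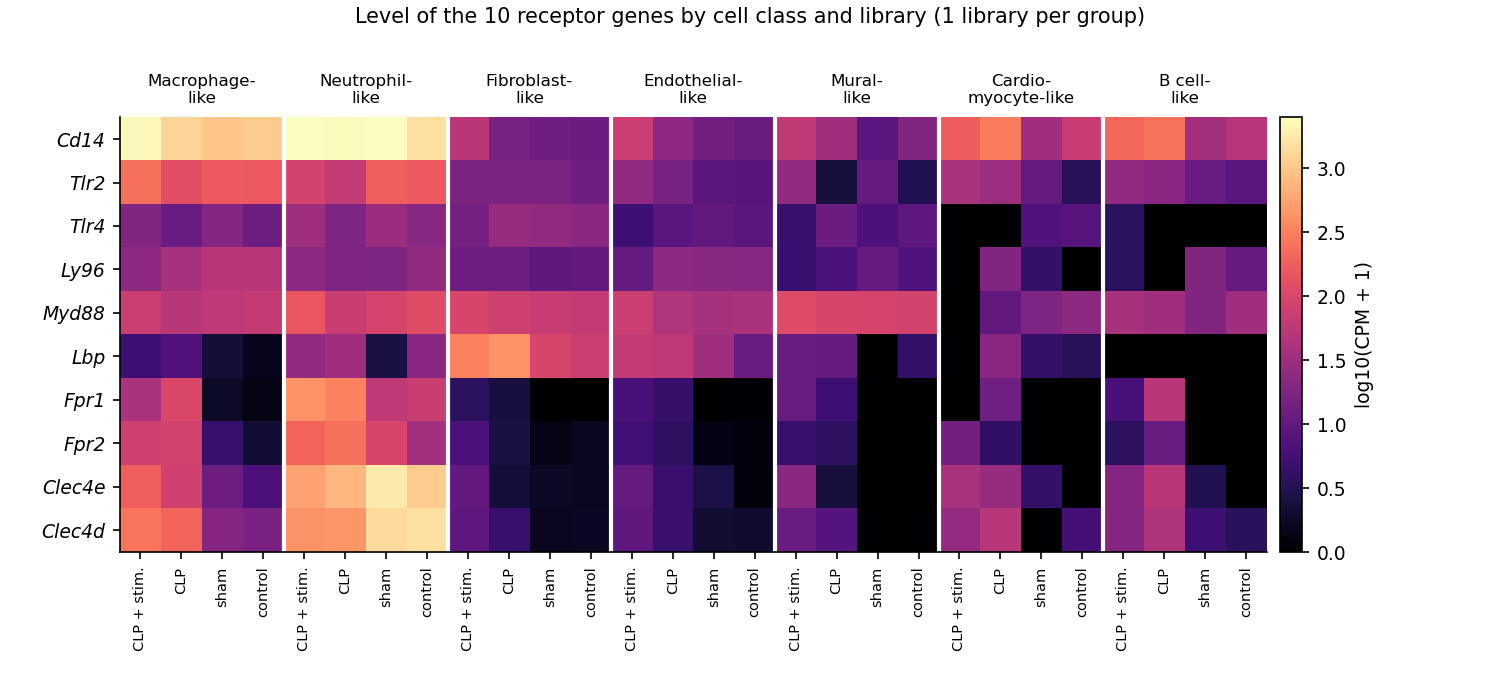
Heat map of log10(CPM + 1) for the 10 genes (rows) in 7 cell classes, each with the libraries CLP plus stimulation, CLP, sham and control from left to right (1 library per group). Fpr1, Fpr2, Clec4e and Clec4d were brightest in neutrophil-like cells, at 327, 241, 763 and 439.9 CPM in CLP, and in macrophage-like cells they were lower in sham and control than in both CLP libraries, while Lbp was brightest in fibroblast-like cells, at 421 CPM in CLP.

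Lbp, the endotoxin carrier that is best known as a liver product, was counted mainly in fibroblast-like cells, which held 74.3% of all Lbp UMIs in CLP plus stimulation, 84.4% in CLP, 75.4% in sham and 79.6% in control. Its level there was 322 CPM in CLP plus stimulation, 421 CPM in CLP, 94.2 CPM in sham and 72.4 CPM in control. Both CLP libraries thus lay above both libraries without CLP. CLP was higher than sham by a log2 ratio of 2.16 (2.07 to 2.25), a value that stayed between 2.16 and 2.26 under every alternative. CLP plus stimulation was lower than CLP by a smaller amount, with a log2 ratio of -0.39 (-0.45 to -0.33). After thinning each cell to 1000 UMIs, the share of fibroblast-like cells with an Lbp UMI was 22.9% in CLP plus stimulation, 27.2% in CLP, 7.69% in sham and 6.37% in control. The unthinned shares were 56.8%, 72.3%, 37.2% and 22.0% in the same libraries.

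In macrophage-like cells Lbp was at 4.17 CPM in CLP plus stimulation, 6.42 CPM in CLP, 1.28 CPM in sham and 0.530 CPM in control. In neutrophil-like cells it was at 24.4, 32.0, 1.64 and 19.8 CPM, of which the sham value rests on 1 UMI and the control value on 4. The neutrophil-like log2 ratio of CLP over sham, 3.72, accordingly had an interval of 1.75 to 9.62. Fibroblast markers summed to 295 CPM in neutrophil-like cells of CLP and to 578 CPM in those of sham, and their part in the Lbp counts was not tested. Endothelial-like cells had 64.5 CPM of Lbp in CLP plus stimulation, 59.0 CPM in CLP, 31.6 CPM in sham and 10.3 CPM in control. A few cells carried much of this. In sham 5 cells held 207 of the 284 Lbp UMIs (72.9%), and in CLP plus stimulation 5 cells held 57.0%. The log2 ratio of sham over control in these cells was 1.61 over all UMIs and 0.09 after thinning. It was -0.49 (7 against 25 UMIs) in those with no macrophage marker and no neutrophil marker other than S100a8 and S100a9.

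Cd14, the endotoxin co-receptor, stood highest in CLP plus stimulation in macrophage-like cells. It was at 2254 CPM in CLP plus stimulation, 1264 CPM in CLP, 993 CPM in sham and 1087 CPM in control, so sham and control lay close together. The log2 ratio of CLP over sham was 0.35 (0.32 to 0.38) and CLP plus stimulation over CLP 0.83 (0.81 to 0.86), neither of which reached 2-fold. After thinning, 80.3% of macrophage-like cells had a Cd14 UMI in CLP plus stimulation, 64.0% in CLP, 54.4% in sham and 58.2% in control, against 6.49%, 3.70%, 0.775% and 3.40% of B cell-like cells. The unthinned shares in macrophage-like cells were 95.4%, 91.8%, 87.5% and 80.2%. Thinning left out 139, 51, 180 and 529 macrophage-like cells with fewer UMIs. In neutrophil-like cells Cd14 was at 2504 CPM in CLP plus stimulation, 2423 CPM in CLP, 2440.1 CPM in sham and 1518 CPM in control, so control was apart from the other libraries, at a log2 ratio of sham over control of 0.68 (0.51 to 0.87).

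Tlr4, the signalling receptor for endotoxin, was a low-count gene in every class. Macrophage-like cells had 18 CPM in CLP plus stimulation, 10.5 CPM in CLP, 19.3 CPM in sham and 11.7 CPM in control, with CLP and control at the low end. The log2 ratio of CLP over sham was -0.87 (-1.16 to -0.59), that of CLP plus stimulation over CLP 0.77 (0.49 to 1.06) and that of sham over control 0.72 (0.46 to 0.98). Fibroblast-like cells had 13.3 CPM in CLP plus stimulation, 27.5 CPM in CLP, 25.2 CPM in sham and 21.0 CPM in control, with CLP plus stimulation below the rest. Its log2 ratio over CLP was -1.04 (-1.33 to -0.77), against a background of 17% of genes at least 2-fold lower in that class, and was -0.88 with TMM scaling. Fibroblast-like cells held 17.5% of all Tlr4 UMIs in CLP plus stimulation, 60.1% in CLP, 39.1% in sham and 50.8% in control.

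Ly96, the partner that binds endotoxin with Tlr4, was lower in both CLP libraries in macrophage-like cells, at 22.8 CPM in CLP plus stimulation, 37.5 CPM in CLP, 53.4 CPM in sham and 51.6 CPM in control. The log2 ratio was -0.51 (-0.67 to -0.36) for CLP over sham and -0.72 (-0.90 to -0.53) for CLP plus stimulation over CLP. Thinned shares of cells with a UMI followed the same order, at 1.97%, 3.04%, 5.19% and 5.07%, while unthinned shares were 15.2%, 23.8%, 26.2% and 16.3%. In endothelial-like cells Ly96 was at 9.75 CPM in CLP plus stimulation, 22.1 CPM in CLP, 20.3 CPM in sham and 20.2 CPM in control, with a log2 ratio of CLP plus stimulation over CLP of -1.15 (-1.82 to -0.60). That ratio was -0.63 after thinning. Neutrophil-like Ly96 rested on 63, 28, 10 and 5 UMIs and gave no readable order.

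Tlr2 was at 243 CPM in CLP plus stimulation, 123 CPM in CLP, 160 CPM in sham and 158 CPM in control in macrophage-like cells. CLP was the lowest library, by a log2 ratio of -0.39 (-0.47 to -0.30) over sham, next to a median of -0.25 over all genes. TMM scaling raised that ratio by 0.20. CLP plus stimulation was the highest, by 0.99 (0.91 to 1.07) over CLP. This last value lies at the edge of 2-fold and was 1.02 with TMM scaling. Neutrophil-like cells had 90.6 CPM in CLP plus stimulation, 63.5 CPM in CLP, 175 CPM in sham and 163 CPM in control, so both CLP libraries were below both others. The log2 ratio of CLP over sham was -1.47 (-1.87 to -1.06), or -0.55 after thinning, on 105 and 107 UMIs before thinning.

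Myd88, the adaptor below both receptors, was spread over classes and differed by less than 2-fold in macrophage-like and fibroblast-like cells. Macrophage-like levels were 73.4 CPM in CLP plus stimulation, 51.8 CPM in CLP, 56.2 CPM in sham and 64.6 CPM in control, and fibroblast-like levels 96.1, 79.2, 67.4 and 63.2 CPM. The macrophage-like log2 ratio of CLP over sham, -0.12 (-0.26 to 0.02), turned to 0.08 with TMM scaling. In neutrophil-like cells Myd88 was at 147 CPM in CLP plus stimulation, 70.7 CPM in CLP, 91.8 CPM in sham and 114 CPM in control. CLP plus stimulation over CLP was a log2 ratio of 1.05 (0.76 to 1.36), or 0.74 with TMM scaling, where 17.4% of all genes were at least 2-fold higher.

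Fpr1 was counted mostly in neutrophil-like cells in sham and control, and in both myeloid classes in the CLP libraries. Macrophage-like cells had 39.6 CPM in CLP plus stimulation (37.0 to 42.4), 101 CPM in CLP (95.6 to 106), 0.821 CPM in sham (0.469 to 1.33) and 0.398 CPM in control (0.146 to 0.865). The counting intervals of sham and control overlapped, and all others were apart. CLP over sham was a log2 ratio of 6.90 (6.24 to 7.75), on 1352 and 16 UMIs, and CLP plus stimulation was lower than CLP, at -1.35 (-1.47 to -1.22). The thinned share of macrophage-like cells with an Fpr1 UMI was 3.71% in CLP plus stimulation, 9.19% in CLP, 0.170% in sham and 0.0573% in control, and the unthinned share 17.5%, 42.9%, 0.415% and 0.149%. In B cell-like cells, which should lack the gene, 0 of 77 thinned cells had a UMI in CLP plus stimulation, which allows a share of up to 3.90% by a limit of 3 counts, and 1 of 27 in CLP (3.70%, 0.0938% to 19.0%). The number of B cell-like cells therefore leaves this background poorly measured in CLP, and the macrophage-like share in CLP plus stimulation is below that limit.

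Neutrophil-like cells also had more Fpr1 in both CLP libraries, at 419.5 CPM in CLP plus stimulation, 327 CPM in CLP, 57.4 CPM in sham and 69.2 CPM in control. CLP over sham was a log2 ratio of 2.49 (2.02 to 3.05) and CLP plus stimulation over CLP 0.36 (0.21 to 0.51). The neutrophil-like and macrophage-like classes thus lay in opposite directions for CLP plus stimulation over CLP, which was not tested, and the neutrophil-like value was 0.04 with TMM scaling. Of all Fpr1 UMIs, macrophage-like cells held 33.0% in CLP plus stimulation, 61.3% in CLP, 27.1% in sham and 25.0% in control, and neutrophil-like cells 45.7%, 24.5%, 59.3% and 58.3%.

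Fpr2, which binds formyl peptides and also host ligands such as annexin A1 and serum amyloid A, followed Fpr1 between CLP and sham but not between the CLP libraries. Macrophage-like cells had 78.5 CPM in CLP plus stimulation, 86.0 CPM in CLP, 3.49 CPM in sham and 1.13 CPM in control. As log2 ratios, CLP over sham was 4.61 (4.27 to 5.0) and CLP plus stimulation over CLP -0.13 (-0.24 to -0.02), so both CLP libraries were nearly level. Sham over control was 1.60 (0.85 to 2.49), on 68 and 17 UMIs. In neutrophil-like cells Fpr2 was at 192 CPM in CLP plus stimulation, 241 CPM in CLP, 95.0 CPM in sham and 34.6 CPM in control. Its log2 ratio of CLP over sham there was 1.33 (0.94 to 1.76), and that of sham over control 1.37 (0.32 to 2.83), on 58 and 7 UMIs. Anxa1, the gene of that ligand, differed less in macrophage-like cells, with a log2 ratio of 0.11 for CLP over sham and 0.73 for CLP plus stimulation over CLP.

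Clec4e and Clec4d went in opposite directions in the 2 myeloid classes between CLP and sham. In macrophage-like cells Clec4e was at 174 CPM in CLP plus stimulation, 83.1 CPM in CLP, 11.6 CPM in sham and 5.57 CPM in control. The levels thus stepped down from CLP plus stimulation through CLP and sham to control, and CLP over sham was a log2 ratio of 2.84 (2.63 to 3.05), CLP plus stimulation over CLP 1.07 (0.97 to 1.17) and sham over control 1.05 (0.69 to 1.44). In neutrophil-like cells Clec4e was at 549 CPM in CLP plus stimulation, 763 CPM in CLP, 1824 CPM in sham and 1078 CPM in control, with both CLP libraries at the low end. CLP over sham was -1.26 (-1.38 to -1.14), or -0.88 with TMM scaling.

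Clec4d in macrophage-like cells was at 267 CPM in CLP plus stimulation, 194 CPM in CLP, 18.8 CPM in sham and 14.9 CPM in control, and CLP over sham was 3.36 (3.20 to 3.52) as a log2 ratio. CLP plus stimulation over CLP was 0.46 (0.40 to 0.53), less than 2-fold. In neutrophil-like cells Clec4d was at 437 CPM in CLP plus stimulation, 439.9 CPM in CLP, 1396 CPM in sham and 1493 CPM in control. CLP over sham was -1.67 (-1.81 to -1.52), and the CLP libraries did not differ beyond counting error (-0.01, -0.14 to 0.12). The thinned share of macrophage-like cells with a Clec4d UMI was 21.0% in CLP plus stimulation, 16.0% in CLP, 1.49% in sham and 1.37% in control. Unthinned it was 67.3%, 59.4%, 7.61% and 4.75%. The thinned share of B cell-like cells was 5.19%, 3.70%, 0% and 0%, on 77, 27, 129 and 147 cells, where 0 allows up to 2.33% in sham and 2.04% in control by the same limit of 3 counts. Of all Clec4d UMIs, macrophage-like cells held 67.7% in CLP plus stimulation, 66.5% in CLP, 25.1% in sham and 37.3% in control.

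**Figure D2:**
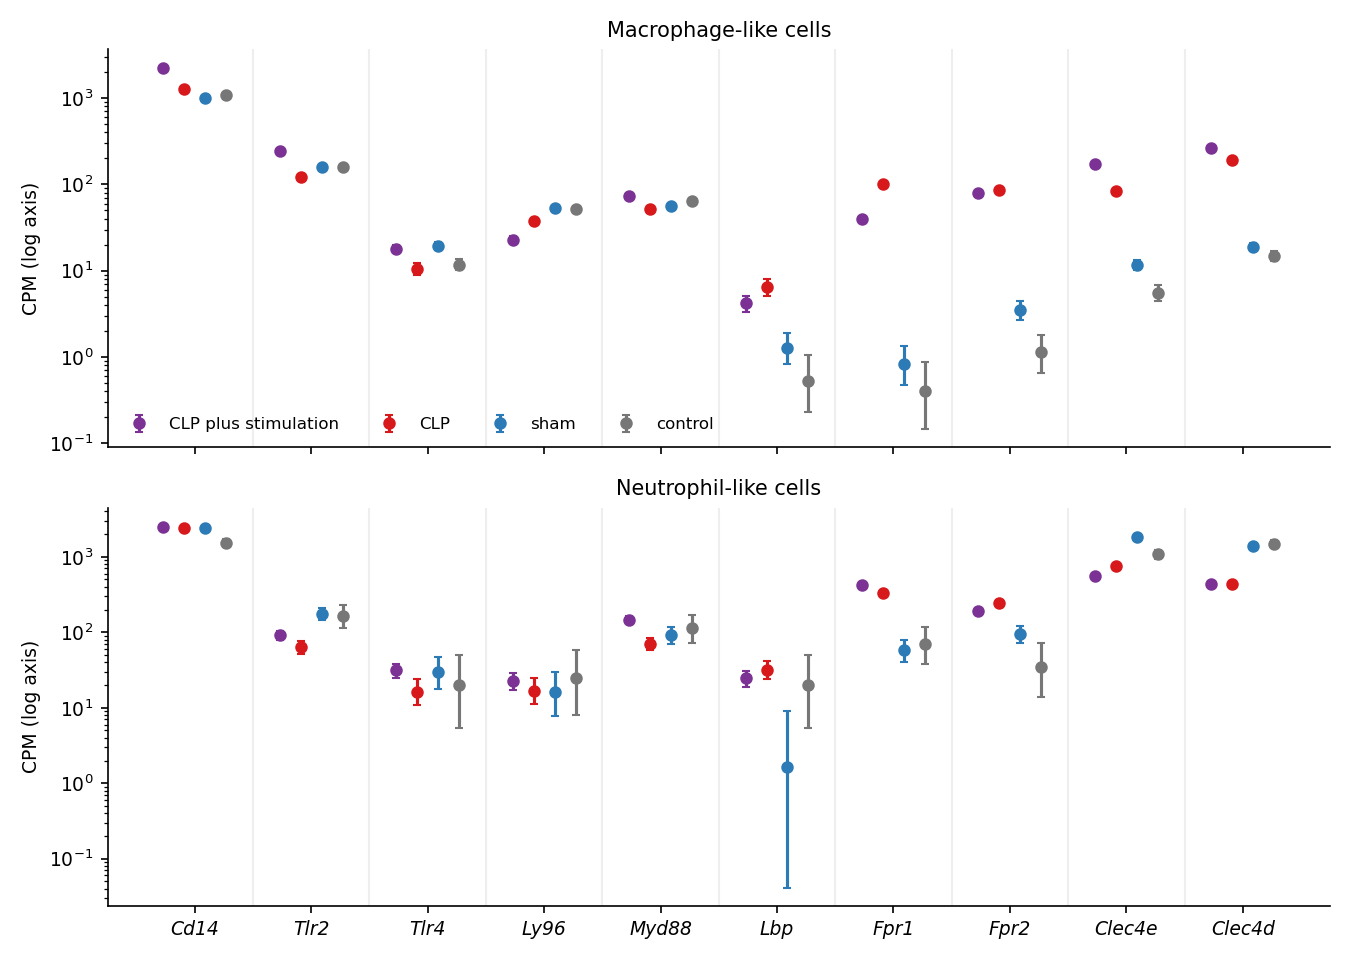
CPM on a log axis of each gene in macrophage-like cells (upper panel) and neutrophil-like cells (lower panel), with points for CLP plus stimulation, CLP, sham and control from left to right and bars for exact 95% Poisson intervals (counting error only, 1 library per group). In macrophage-like cells Clec4d was at 267 and 194 CPM in the CLP libraries, against 18.8 and 14.9 CPM in sham and control, and in neutrophil-like cells at 437 and 439.9 CPM, against 1396 and 1493 CPM.

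In macrophage-like cells 5 of the 10 genes were at least 2-fold higher in CLP than in sham and 0 were at least 2-fold lower, where 5.02% of 12834 genes were higher and 18.1% lower. The 5 were Fpr1, Fpr2, Clec4d, Clec4e and Lbp. Of these Lbp was low in counts, and in CLP 5 cells held 25 of its 86 UMIs (29.1%). Fibroblast markers summed in macrophage-like cells to 238 CPM in CLP plus stimulation, 275 CPM in CLP, 324 CPM in sham and 331 CPM in control, and their part in the Lbp counts was not tested. The median log2 ratio of the 10 genes was 1.33, against -0.25 over all genes. In CLP plus stimulation over CLP, 1 gene was higher (Clec4e) and 1 lower (Fpr1), where 8.17% of all genes were higher and 8.93% lower. In sham over control, Fpr2, Clec4e and Lbp were higher and none was lower, against 1.85% and 1.5% of all genes, and the Lbp ratio rests on 25 and 8 UMIs. Without doublet removal Clec4e was at 0.96 and Lbp at 0.75 there. TMM scaling, which uses the bulk of the genes in place of total UMIs, moved every log2 ratio of CLP over sham by 0.20 in macrophage-like cells and by 0.38 in neutrophil-like cells, and those of CLP plus stimulation over CLP by -0.31 in neutrophil-like cells.

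In neutrophil-like cells 3 of 10 genes were higher in CLP than in sham (Lbp, Fpr1 and Fpr2) and 3 lower (Clec4d, Tlr2 and Clec4e), where 8.89% of 5554 genes were higher and 15.7% lower. The median of the 10 genes was -0.20, next to -0.21 over all genes. In CLP plus stimulation over CLP 1 of 10 was higher (Myd88) and 0 lower, against 17.4% and 3.73% of all genes. In sham over control 1 of the 8 measured genes was higher (Fpr2) and 0 lower, against 4.77% and 5.1%.

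Other markers moved with these results in both myeloid classes, and their part in them was not tested. Among macrophage-like cells the 9 macrophage markers summed to 9798 CPM in CLP plus stimulation, 12955 CPM in CLP, 19958 CPM in sham and 17766 CPM in control, while the 9 neutrophil markers summed to 1341 CPM, 1773 CPM, 181 CPM and 114 CPM. S100a8 and S100a9 made up most of the neutrophil sum, at 1133 and 513 CPM in CLP. Among neutrophil-like cells the 9 neutrophil markers took up 210031 CPM in CLP plus stimulation, 335993 CPM in CLP, 163444 CPM in sham and 120321 CPM in control, most of it again S100a8 and S100a9. Within that list Csf3r, the receptor for granulocyte colony-stimulating factor, was at 77.2 CPM in CLP plus stimulation, 158 CPM in CLP, 1203 CPM in sham and 1271 CPM in control, and Il1r2, a decoy receptor for interleukin-1, at 272, 417, 1322 and 1933 CPM. Ifitm6, listed as a monocyte marker, was at 1699 CPM in CLP plus stimulation, 1679 CPM in CLP, 157 CPM in sham and 134 CPM in control in the same cells.

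The level in macrophage-like cells as a percent of that in neutrophil-like cells of the same library shows how far the receptors and the neutrophil markers differed. In CLP it was 30.9% for Fpr1, 35.7% for Fpr2, 44.0% for Clec4d and 10.9% for Clec4e. For the neutrophil markers it was 0.361% for Retnlg, 0.250% for Cxcr2, 0.607% for S100a8, 0.376% for S100a9, 1.12% for Mmp9 and 0.778% for Hdc, with Il1r2 at 2.27%, Mxd1 at 6.80% and Csf3r at 18.4%. Fpr1 stood at 9.44% in CLP plus stimulation, with Fpr2 at 40.8%, Clec4e at 31.8% and Clec4d at 61.1%, and among the markers Csf3r at 26.9% and Il1r2 at 25.1%, so Fpr1 lay below those markers there. In sham it was 1.43% for Fpr1, 3.67% for Fpr2, 1.35% for Clec4d and 0.636% for Clec4e, next to 1.29% for Csf3r and 2.34% for Mmp9. Among macrophage-like cells with no neutrophil marker other than S100a8 and S100a9, the log2 ratios of CLP over sham were 6.82 for Fpr1, 4.80 for Fpr2, 3.43 for Clec4d and 3.24 for Clec4e.

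**Figure D3:**
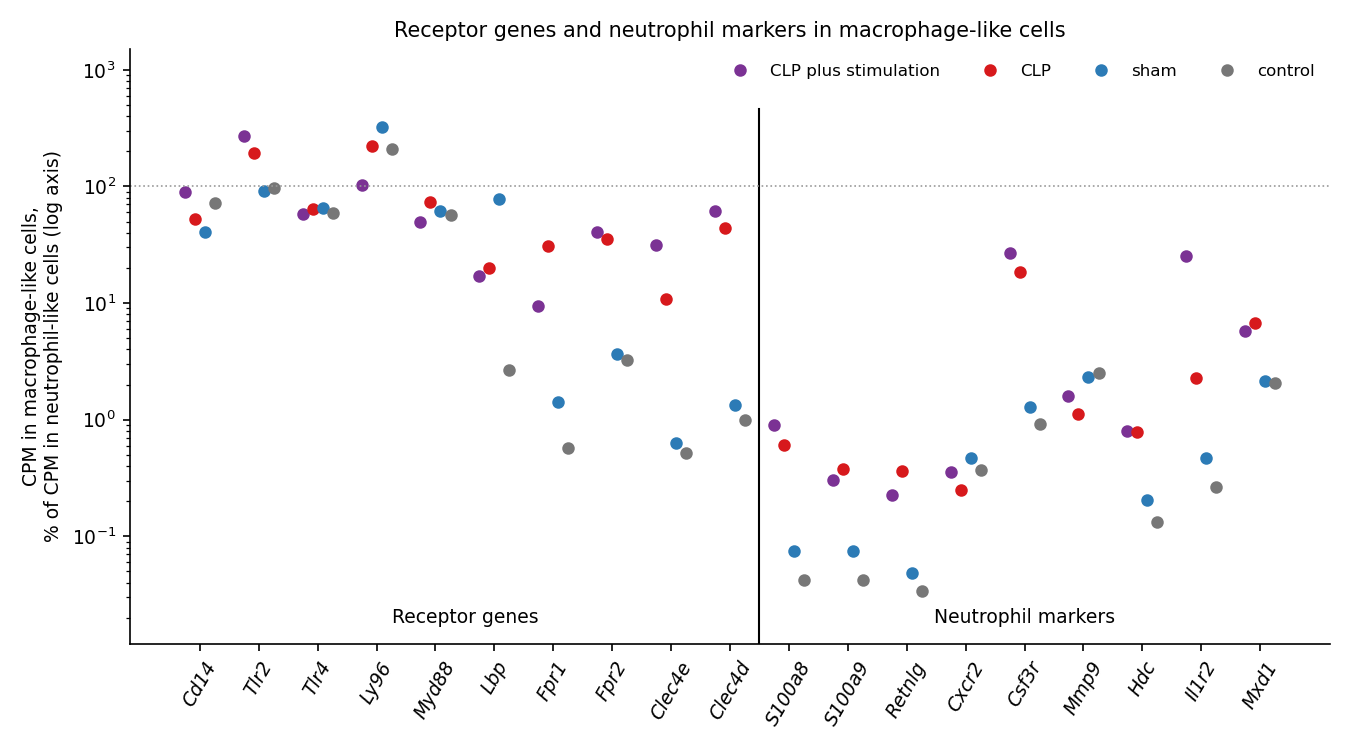
Level in macrophage-like cells as a percent of the level in neutrophil-like cells of the same library, on a log axis, for the 10 receptor genes (left of the line) and 9 neutrophil markers (right of the line), with points for CLP plus stimulation, CLP, sham and control from left to right (1 library per group). In CLP, Fpr1, Fpr2 and Clec4d stood at 30.9%, 35.7% and 44.0%, above every neutrophil marker, of which Csf3r was the highest at 18.4%. Clec4e stood at 10.9% in CLP, below Csf3r. In CLP plus stimulation Fpr1 stood at 9.44%, below Csf3r (26.9%) and Il1r2 (25.1%). The markers, unlike the 10 genes, were used to sort the cells, which by design holds them low here.

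Fibroblast-like and endothelial-like cells had low levels of the leukocyte genes, given here beside those of leukocyte markers in the same cells. In fibroblast-like cells of CLP, Fpr1, Fpr2, Clec4e and Clec4d were at 1.46, 1.63, 1.35 and 3.54 CPM, which was 1.45%, 1.90%, 1.62% and 1.83% of their macrophage-like levels, and the macrophage markers stood at 1.86% of theirs. By fold, 4 of 10 genes were at least 2-fold higher in CLP than in sham in fibroblast-like cells (Lbp, Fpr1, Fpr2 and Clec4d) and 0 lower, where 3.74% of all genes were higher and 7.66% lower. Of these, Lbp alone kept at least 20 counts and a 2-fold difference after thinning. Sham had no Fpr1 UMI in these cells, so CLP was at least 6.50-fold higher against a floor of 3 counts. In endothelial-like cells 4 of 10 genes were higher (Fpr1, Fpr2, Clec4e and Clec4d, at 3.38, 2.80, 3.62 and 3.62 CPM in CLP) and 0 lower, against 4.41% and 7.32% of all genes. Those levels were 3.35%, 3.26%, 4.36% and 1.87% of the macrophage-like ones, next to 1.55% for the macrophage markers. Fpr1 had no UMI there in sham and was at least 10.1-fold higher in CLP. Fpr2, Clec4e and Clec4d had 3, 15 and 10 UMIs in sham, so all 4 passed the filter of 20 counts through CLP. The same held in fibroblast-like cells for Fpr1, Fpr2 and Clec4d, with 0, 5 and 8 UMIs in sham. The endothelial-like count was 2 at a limit of 50 counts and 1 after thinning. It was also 2 in cells with no macrophage marker and no neutrophil marker other than S100a8 and S100a9.

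In CLP plus stimulation over CLP, 4 genes were at least 2-fold higher in fibroblast-like cells (Cd14, Fpr2, Clec4e and Clec4d) and 1 lower (Tlr4), against 5.01% and 17% of all genes. Cd14 was at 52.7 CPM in CLP plus stimulation and 14.6 CPM in CLP, which was 2.34% and 1.15% of the macrophage-like levels, where the macrophage markers stood at 2.90% and 1.86%. In CLP plus stimulation Fpr2 (5.49 CPM), Clec4e (9.51 CPM) and Clec4d (8.43 CPM) stood at 7.0%, 5.45% and 3.16% of their macrophage-like levels. Of the UMIs of these genes in this class, 5 cells held 33.9%, 33.0% and 15.1%, and the source of these counts was not tested. Fpr2, Clec4e and Clec4d stood at 2.86%, 1.73% and 1.93% of their neutrophil-like levels, where the neutrophil markers stood at 0.315% of theirs. The sorting itself holds both sets of markers low in this class, so neither share is a full measure of free RNA. In endothelial-like cells 3 were higher (Cd14, Clec4e and Clec4d) and 1 lower (Ly96), against 8.58% and 20.1%. Cd14 there was at 72.4 CPM in CLP plus stimulation and 22.8 CPM in CLP, or 3.21% and 1.80% of the macrophage-like levels, where the macrophage markers stood at 1.86% and 1.55%. Of the 193 Cd14 UMIs of this class in CLP plus stimulation, 5 cells held 66 (34.2%). For sham over control, 0 of 6 measured genes passed 2-fold in fibroblast-like cells, where 0.902% of all genes were higher and 1.55% lower. In endothelial-like cells 1 of 7 did, which was Lbp, where 1.53% were higher and 0.876% lower.

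**Figure D4:**
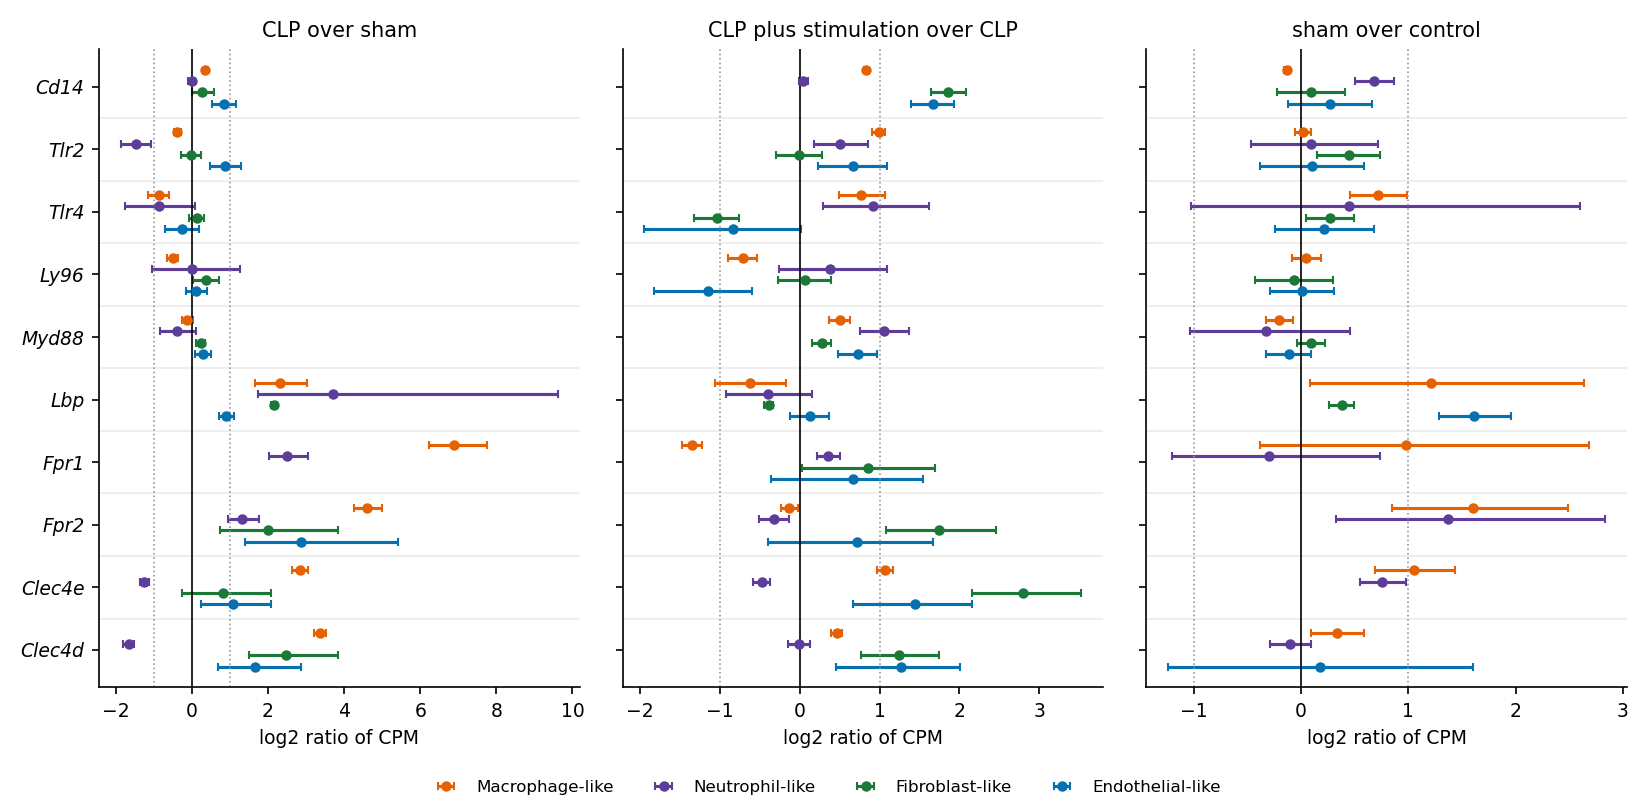
Log2 ratio of CPM for each gene in macrophage-like, neutrophil-like, fibroblast-like and endothelial-like cells, for CLP over sham, CLP plus stimulation over CLP and sham over control, with exact 95% intervals (counting error only) and dotted lines at 2-fold, for genes with at least 20 counts over the 2 libraries and a count in each. For CLP over sham, Clec4d stood at 3.36 in macrophage-like and -1.67 in neutrophil-like cells, and Lbp at 2.16 in fibroblast-like cells.

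Other genes of the same pathways were described by list, in macrophage-like cells first. Of the other Toll-like receptors, 0 of 9 measured were at least 2-fold higher in CLP than in sham and 3 were lower, where 5.02% of all genes were higher and 18.1% lower. The median log2 ratio of the 9 genes was -0.97, next to -0.25 over all genes. The lowest were Tlr12 at -1.99, on 6 and 37 UMIs, and the RNA receptor Tlr8 at -1.68, and the highest were Tlr13, a receptor for bacterial ribosomal RNA, at 0.41 and Tlr1, a partner of Tlr2, at -0.03. In CLP plus stimulation over CLP the endosomal receptors Tlr8 (2.03) and Tlr7 (1.64) were highest, while Tlr1 was lowest at -2.30 and Tlr9 next at -0.58. Tlr8 was at 15.6 CPM in CLP plus stimulation, 3.81 CPM in CLP, 12.3 CPM in sham and 13.1 CPM in control, so CLP stood below the other libraries.

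Of the 14 adaptors and kinases below the receptors, none passed 2-fold in macrophage-like cells in either comparison. Over all genes, 5.02% were higher and 18.1% lower in CLP than in sham. For CLP plus stimulation over CLP, 8.17% were higher and 8.93% lower. The median of the 14 genes was -0.03 for CLP over sham, next to -0.25 over all genes. For CLP plus stimulation over CLP it was 0.28, next to 0.04. The highest for CLP over sham were Ticam1 at 0.68 and Tirap at 0.62, both Toll-like receptor adaptors, and the lowest were Ticam2, a further adaptor of Tlr4, at -0.90 and Tab1 at -0.56. Of 10 genes that restrain the pathway, 1 was higher and 2 were lower in CLP than in sham, and the share lower is close to the 18.1% of all genes. Irak3 (IRAK-M), an inhibitor of Myd88 signalling, was at 169 CPM in CLP plus stimulation, 118 CPM in CLP, 14.6 CPM in sham and 14.4 CPM in control, with a log2 ratio of CLP over sham of 3.01, and Tnip1 was next at 0.90. Lowest were Ly86 at -2.31 and Cd180 at -1.90, which form a Tlr4-like receptor complex. In CLP plus stimulation over CLP, Tnfaip3 (A20) was highest at 1.38 with Zc3h12a, an RNase that degrades inflammatory transcripts, at 0.97, and Cd180 lowest at -2.03 with Sigirr at -0.22.

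Of 11 lectin partners and their signalling genes, 0 were higher and 1 lower in CLP than in sham, where 5.02% of all genes were higher and 18.1% lower. None was higher in CLP plus stimulation than in CLP and 4 were lower, where 8.17% of all genes were higher and 8.93% lower. For CLP over sham, the lectin receptors Clec4a2 (0.83) and Clec4a1 (0.75) were highest, and the inhibitory receptor Clec12a (-2.18) and the signalling protein Bcl10 (-0.46) lowest. For CLP plus stimulation over CLP, Clec12a (-2.46) and Clec4a3 (-1.50) were lowest, and Malt1 (0.53) and Syk (0.33), which relay lectin signals, were highest. The shared gamma chain Fcer1g differed less, at 0.41 for CLP over sham and 0.31 for CLP plus stimulation over CLP. Of 8 measured genes of endotoxin handling and endogenous ligands, 4 were at least 2-fold higher in CLP than in sham and 0 lower, against 5.02% and 18.1% of all genes, and the median was 1.20. S100a8 (4.50) and Trem1 (3.11), a receptor that amplifies Toll-like receptor signals, were highest, and Hmgb1 (-0.51) and the scavenger receptor Cd36 (-0.47) lowest. S100a8 and S100a9 are also markers by which neutrophil-like cells were sorted. Trem1 was at 133 CPM in CLP plus stimulation, 28.1 CPM in CLP, 3.23 CPM in sham and 2.98 CPM in control, and its log2 ratio of CLP plus stimulation over CLP was 2.24, where Aoah, which inactivates endotoxin, was next at 0.81, and Cd36 (-1.22) and the scavenger receptor Msr1 (-1.18) were lowest.

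For sham over control in macrophage-like cells, no gene of these lists passed 2-fold other than S100a8 (1.38) and S100a9 (1.26). Of all genes, 1.85% were at least 2-fold higher and 1.5% lower.

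Neutrophil-like cells had fewer of these genes measured. Of the restraint list 1 of 8 was higher in CLP than in sham (Irak3 at 1.09) and 2 lower (Ly86 at -1.91 and Zc3h12a at -1.51), against 8.89% and 15.7% of all genes. For CLP plus stimulation over CLP 4 of 8 were higher, led by Tnfaip3 at 1.82 and Irak3 at 1.47, where 17.4% of all genes were higher and the median over all genes was 0.38. Of 11 lectin partners 3 were lower in CLP than in sham, where 15.7% of all genes were lower, with Clec4n (Dectin-2) at -2.09 and the kinase Syk at -1.54 lowest. Bcl10 (0.44) and Clec4a2 (0.64) were highest.

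Across 36 pools of class and library with at least 20 cells, the genes with the most similar pattern of log2(CPM + 5) were, by Pearson's r, Wfdc17 (0.97), Lilrb4a (0.96) and Pirb (0.96) for Cd14, and Pla2g7 (0.91), Slc15a3 (0.91) and Lrrc25 (0.90) for Tlr2. These pools share libraries, depth and free RNA, and the values are descriptions. Slc7a11 and Fgr were the nearest to both Clec4e (0.97 and 0.96) and Clec4d (0.95 and 0.95), followed by Acod1 (0.95) for Clec4e and Il1rn (0.95) for Clec4d. Wfdc21 was near both Fpr1 (0.92) and Fpr2 (0.90), with Cd300lf (0.91) and S100a8 (0.88) for Fpr1 and Fbxl5 (0.91) and Cxcl3 (0.90) for Fpr2. Within the 10 genes the closest pairs were Clec4e with Clec4d (0.97) and Fpr1 with Fpr2 (0.92). Of the other genes, Tlr4 was nearest to Lamp2 (0.79), Gab2 (0.73) and Selenon (0.73). For Ly96 the nearest were Atp6v1a (0.80), Oas1a (0.80) and Cept1 (0.77), and for Myd88 Adprh (0.80), Bach1 (0.80) and Acap2 (0.78). Tlr4, Ly96 and Myd88 reached at most 31.2, 53.4 and 147 CPM in any pool, and why their values were lower was not tested. Lbp was nearest to Smim41 (0.81), Ahsg (0.81) and Mmp3 (0.80), of which Ahsg and Mmp3 had their highest pool in fibroblast-like cells of CLP.

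The 70 monocyte-like cells of CLP plus stimulation had a median of 18727.5 UMIs and those of sham 8365, and 61.4% and 54.2% of them lay near the limit of the sorting rule. The cells of CLP plus stimulation had 965 CPM of Cd14, 43.9 CPM of Fpr1, 83.4 CPM of Fpr2, 478 CPM of Clec4e and 107 CPM of Clec4d. The 24 monocyte-like cells of sham had 775 CPM of Cd14, 5.03 CPM of Fpr1, 10.1 CPM of Fpr2, 171 CPM of Clec4e and 146 CPM of Clec4d, of which Fpr1 rests on 1 UMI and Fpr2 on 2. These pools are small and of unequal depth.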

How the data were processed

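The files deposited by the authors hold unnormalized UMI counts by gene and barcode. Cell Ranger 5.0.0 wrote them, per the file headers, and the submitters' processing notes name STAR and mm10. Per the labels' protocols, the kit was Chromium 3' v3. No deposited barcode had under 500 UMIs, and the sources used here do not give the filters behind that. Barcodes with at least 200 genes and at most 20% mitochondrial UMIs were kept, and the highest Scrublet scores (scanpy 1.11.5), at 0.8% per 1000 barcodes, were left out as doublets. That left 8022, 7745, 8281 and 13568 cells in CLP plus stimulation, CLP, sham and control.

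A cell joined a class when it expressed at least 3 of its markers and at least 2 more than of any other class. None of the 10 genes is a marker. This rule was settled after the data had been seen, and 2480, 1250, 940 and 1869 cells stayed without a class. Cells at either limit are called near it. Counts were summed per class and library. CPM has exact Poisson intervals, log2 ratios use a prior count of 0.5 with exact conditional binomial intervals, and shares are Clopper-Pearson, with 3 counts as the limit that a count of 0 allows. No test was made, since a class has 1 value in each library. TMM factors came from edgeR 4.0.16 in R 4.3.3. Intervals were tried on simulated independent Poisson counts, and the sorting rule on cells simulated from pools that the same rule had sorted. By that design, neither trial can show the effect of counts clumped in a few cells or of wrongly sorted cells.

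The genes, the 6 pathway lists and the markers were chosen with earlier results of these data known. Named genes are the 10 members, the 2 highest and 2 lowest measured genes of each list in a class, and the 3 genes most correlated with each member among genes that reach 50 CPM in a pool. Others, such as Fcer1g, Csf3r, Il1r2 and Ifitm6, were chosen after their values were seen. Promoters came from RefSeq (GRCm38.p6), where 6 of the 10 members had a window eligible for printing here.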

Additional observations from a re-analysis of the deposited data

Results flagged for a closer look

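The lectin genes stood in opposite directions in different classes between CLP and sham, and that difference between classes was not tested. Clec4e had a log2 ratio of CLP over sham of 2.84 in macrophage-like cells and 1.09 in endothelial-like cells, and -1.26 in neutrophil-like cells. For Clec4d the ratio was 3.36 in macrophage-like cells, 2.49 in those called fibroblast-like, 1.65 in endothelial-like cells and -1.67 in neutrophil-like cells. The endothelial-like and fibroblast-like values rest on levels of at most 3.62 CPM.

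Cells without a class, which no comparison above uses, had several of the genes above their level in control, some of them in sham as well. Cd14 was at 990 CPM in CLP plus stimulation, 630 CPM in CLP and 297 CPM in sham, against 177 CPM in control. Tlr2 was at 95.3 CPM in CLP plus stimulation, 52.2 CPM in CLP and 54.8 CPM in sham, against 37.0 CPM in control. Lbp was at 74.4, 75.7 and 17.8 CPM in the same libraries, against 25.8 CPM in control, so sham was the lowest for this gene. Fpr1 was at 43.2, 37.2 and 1.32 CPM, against 0.527 CPM in control, and Fpr2 at 71.6, 31 and 2.46 CPM, against 0.702 CPM. Clec4e was at 248, 103 and 36.7 CPM, against 7.55 CPM, and Clec4d at 121, 72.2 and 36.7 CPM, against 8.42 CPM. Median depth in these cells was 1337 UMIs in CLP plus stimulation, 2311.5 in CLP, 2605.5 in sham and 1519 in control.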

How the results depend on the processing

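No paired analysis was possible because each group has 1 library. In macrophage-like cells the count of genes past 2-fold was 5 for CLP over sham and 2 for CLP plus stimulation over CLP. Neither count moved by over 1.5 times under TMM scaling, other count filters, a stricter sorting rule, no doublet removal or a mitochondrial limit of 10%. Nor did either move by more than that after thinning to 1000 UMIs or in marker-free cells. The same held for the 6 genes of neutrophil-like cells in CLP over sham. The marker-free setting was chosen after seeing the data. It kept macrophage-like cells with no neutrophil marker other than S100a8 and S100a9, and neutrophil-like cells with no macrophage marker. Both limits applied to fibroblast-like and endothelial-like cells. Monocyte markers, S100a8 and S100a9 were not filtered in it. The counts that moved are given next. In macrophage-like cells sham over control, 3 in the main result, was 1 without doublet removal, after thinning and in marker-free cells. In neutrophil-like cells CLP plus stimulation over CLP, 1 in the main result, was 0 with TMM scaling and after thinning and 2 with the stricter rule and without doublet removal. Sham over control there, 1 in the main result, was 2 without a count filter and without doublet removal and 0 in marker-free cells. In endothelial-like cells CLP over sham, 4 in the main result, was 2 at 50 counts, 1 after thinning and 2 in marker-free cells, and CLP plus stimulation over CLP, 4 in the main result, was 1 after thinning. Sham over control there, 1 in the main result, was 3 without a filter, 2 without doublet removal and 0 after thinning and in marker-free cells. In fibroblast-like cells CLP over sham, 4 in the main result, was 2 at 50 counts and 1 after thinning and in marker-free cells. CLP plus stimulation over CLP, 5 in the main result, was 2 after thinning and in marker-free cells. Sham over control, 0 in the main result, was 2 without doublet removal and 1 after thinning. Thinning and marker-free cells leave fewer counts by construction, and the cause of the shifts was not tested under any setting. Of the log2 ratios past 2-fold, Lbp for sham over control in endothelial-like cells changed sign, to -0.49 in marker-free cells, and none of the others did under these settings. Among ratios under 2-fold, 8 changed sign with TMM scaling, 4 with the stricter rule, 12 without doublet removal, 1 at a mitochondrial limit of 10%, 13 after thinning and 19 in marker-free cells, of 111 ratios in all. TMM scaling moved 21 and kept 90 of the 111 single-gene log2 ratios within their counting interval. Neutrophil-like pools of 133 to 447 cells and genes under 20 counts limit what depth can show.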
